A study of Mus musculus with 8 samples.

Results

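The enzymes that turn arachidonic acid into prostaglandins, thromboxane and leukotrienes were examined in cultured mouse macrophages with and without a Cre-mediated deletion of 2 miRNA clusters. The set was chosen by gene symbol and holds 10 genes, namely Pla2g4a, Ptgs1, Ptgs2, Ptges, Ptges3, Tbxas1, Alox5, Alox5ap, Lta4h and Ltc4s. All 10 were found among the 15853 genes of the authors' deposited table, and all 10 had an adjusted p-value. Bone marrow cells were grown into macrophages over 7 days with L929 conditioned medium. Both groups then spent 24 h in insulin (10 nM), glucose (25 mM) and the saturated fatty acid palmitate (C16:0, 250 uM). The 4 control libraries were labelled Mirc11fl/fl Mirc22fl/fl Lyz2+/+ and the 4 knockout libraries Mirc11fl/fl Mirc22fl/fl Lyz2Cre/Cre. Both groups thus carried the floxed clusters, whose products are miRNAs of 3 families (miR-23, miR-24 and miR-27). The knockout group alone carried Cre, inserted in both copies of Lyz2, so loss of the clusters, Cre and loss of Lyz2 cannot be told apart. Lyz2 is active in myeloid cells, and cells of other lineages in such a culture would keep the clusters.

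Arachidonic acid is stored in membrane phospholipids and is freed by phospholipase A2, of which the cytosolic enzyme encoded by Pla2g4a is the best known in macrophages. The cyclooxygenases encoded by Ptgs1 and Ptgs2 convert it to prostaglandin H2, from which terminal synthases make prostaglandin E2, thromboxane A2 and other prostanoids. In the other branch 5-lipoxygenase, encoded by Alox5 and assisted by the membrane protein of Alox5ap, makes leukotriene A4, which Lta4h converts to leukotriene B4 and Ltc4s to leukotriene C4. Macrophages can make products of both branches, and Ptgs1 is usually described as the constitutive and Ptgs2 as the inducible isozyme.

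The genotypes were compared through the authors' DESeq2 result, in which a gene is called here at an adjusted p under 0.05. Values of single libraries were not used, because their columns match no sample label, so each gene is described by a mean normalized count over all libraries and a log2 fold change with its standard error (SE). Group means were derived from these by assuming equal group sizes. The sign was read from Lyz2, whose log2 fold change was -9.10 (SE 0.42, from the authors' deposited table), so a negative value is read as a lower level in the knockout. Of 14619 tested genes 3363 were called, which is 23% (11.3% higher and 11.7% lower in the knockout). When fold changes were centred on the sum of each group's means (a shift of -0.06), the split was 2339 higher and 960 lower in place of 1651 and 1712. These sums include Lyz2, with derived means of 511449 in control and 935 in knockout cells, and its share in the shift was not computed. Of 8 macrophage markers 1 was called higher (Adgre1) and 3 lower (Csf1r, Cd68 and Fcgr1, the last 2 named after their values were seen), and their summed derived levels were 612846 in control and 549198 in knockout cells. Csf1r, the M-CSF receptor, and Adgre1, which encodes F4/80, had means of 163291 and 144462 in the authors' deposited table. Fibroblast markers moved with the genotype. All 9 that were measured were called higher, with a summed derived level of 1234 in control and 5103 in knockout cells, led by Col1a1 and Col1a2 (means of 1012 and 986 in the authors' deposited table). Whether fibroblasts or their RNA had a part in any change below was not tested. In bulk RNA a change in the number of cells of a type and a change in RNA per cell cannot be told apart.

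Among the 10 synthesis genes, 4 were called and they split evenly. Pla2g4a and Ptgs2 were higher in the knockout, and Ptgs1 and Alox5ap were lower. The median log2 fold change of the 10 was 0.01, against -0.00 over all tested genes, and the share called, 4 of 10, stands beside a background of 23%. The changes of the called genes were modest except for Ptgs2, with 1.25-fold for Pla2g4a, 2.10-fold for Ptgs2, 0.78-fold for Ptgs1 and 0.80-fold for Alox5ap, computed from the authors' deposited table. Alox5ap alone was far from the threshold.

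**Figure D1:**
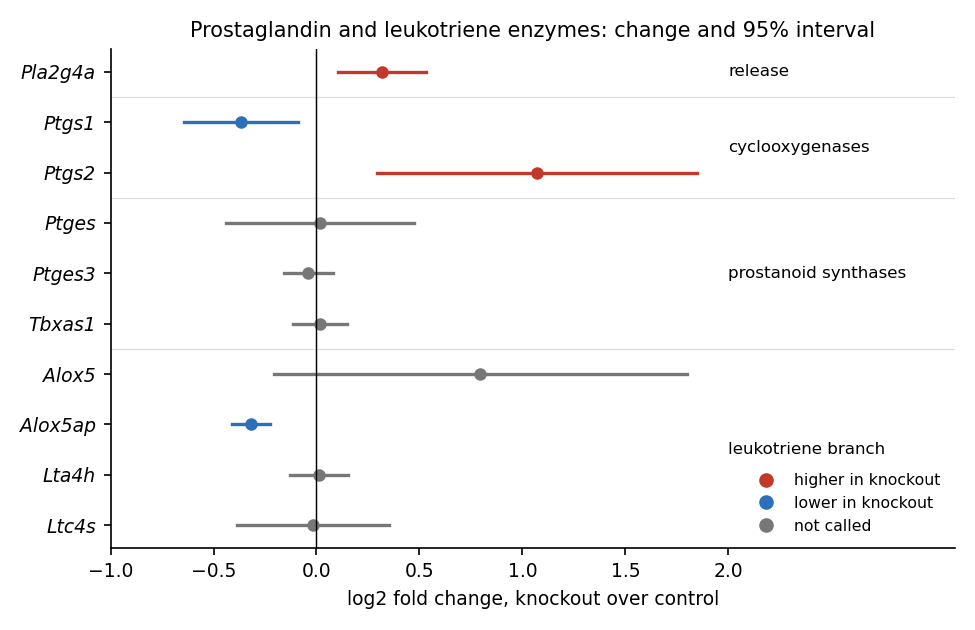
Each point is the log2 fold change of a gene, knockout over control, and each bar its 95% interval (fold change plus or minus the normal quantile times the SE). The intervals of Pla2g4a and Ptgs2 lie above 0, those of Ptgs1 and Alox5ap below 0, and the other 6 include 0.

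Arachidonate release was represented by Pla2g4a, the cytosolic phospholipase A2 that cuts arachidonate from membranes when calcium rises. The gene lies on chromosome 1, 149829618 to 149961290, on the minus strand (mm10). Its derived mean was 1948 normalized counts in control and 2428 in knockout cells. The authors' deposited table lists a log2 fold change of 0.32 (DESeq2 adjusted p = 0.0204, SE 0.11), with a 95% interval of 0.10 to 0.53. Its SE was 1.37 times the median SE of the 200 genes of most similar mean, so the gene was somewhat less precisely measured than its peers. The fibroblast markers were also higher (9 of 9 called), and their part in this rise was not tested.

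The cyclooxygenase isozymes moved in opposite directions. Ptgs2, which encodes the inducible COX-2 (chromosome 1, 150100031 to 150108227, plus strand), had a derived mean of 82.7 in control and 174 in knockout cells. Its log2 fold change was 1.07 (DESeq2 adjusted p = 0.0341, SE 0.40) in the authors' deposited table, and the 95% interval of the fold ran from 1.23 to 3.60. This is a lowly expressed gene here, at the 26.8th percentile of the mean over tested genes, and its SE was 1.87 times the median of genes of like mean. Because single libraries were not used, it is not known whether the higher level was shared by all knockout libraries. Fibroblasts can express Ptgs2, and their markers were higher as well (9 of 9 called, summed derived level 1234 against 5103), but their part was not tested.

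Ptgs1, which encodes the constitutive COX-1 (chromosome 2, 36230426 to 36252272, plus strand), had a derived mean of 1017 in control and 788 in knockout cells. For Ptgs1 the authors' deposited table lists a log2 fold change of -0.37 (DESeq2 adjusted p = 0.0434, SE 0.14). Under the centring on summed means the log2 fold change of Ptgs1 was -0.30. A Wald test on this shifted value with the deposited SE, adjusted anew over the tested genes, gave an adjusted p of 0.107. The call was thus lost. Ptgs1 exons overlap those of Gm43621 on the opposite strand, a gene without a deposited mean. The sources used here do not state a strand setting of the counting, so reads within the overlap cannot be told apart. Per kilobase of the longest annotated transcript, the derived level of Ptgs1 was 19.1 times that of Ptgs2 in control and 7.05 times in knockout cells. Ptgs1 thus remained the more abundant cyclooxygenase transcript in both groups, also with the median length of coding transcripts (10.3 and 3.81 times). The change in this ratio follows from the 2 fold changes and was not tested as such.

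The windows from 250 bases before to 50 bases after the start site are shown for the genes of the first 2 steps, because Pla2g4a and Ptgs2 rose while Ptgs1 fell. Sequences are RefSeq's (GRCm38.p6), 5′ to 3′ on the gene's strand. Capitals mark matches to the TATA box motif TATAAA, the GC box motif GGGCGG, the AP-1 motif TGANTCA, the cyclic AMP response motif TGACGT, the C/EBP motif TTGCNNAA, the PU.1 motif GAGGAAG or the NF-kB consensus, searched on both strands.
Pla2g4a chr1:149961241-149961540, minus strand: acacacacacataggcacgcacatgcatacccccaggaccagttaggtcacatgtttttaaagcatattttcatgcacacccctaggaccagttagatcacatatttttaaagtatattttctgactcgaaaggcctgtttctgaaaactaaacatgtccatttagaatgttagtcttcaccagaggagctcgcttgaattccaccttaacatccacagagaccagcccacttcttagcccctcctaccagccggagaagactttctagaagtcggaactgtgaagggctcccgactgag
Ptgs2 chr1:150099781-150100080, plus strand: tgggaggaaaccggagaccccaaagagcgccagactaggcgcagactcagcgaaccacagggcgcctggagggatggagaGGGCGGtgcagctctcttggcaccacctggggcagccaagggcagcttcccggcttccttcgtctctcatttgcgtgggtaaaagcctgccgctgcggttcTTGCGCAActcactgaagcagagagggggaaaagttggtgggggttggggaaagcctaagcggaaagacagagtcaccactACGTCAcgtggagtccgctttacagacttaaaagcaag
Ptgs1 chr2:36230176-36230475, plus strand: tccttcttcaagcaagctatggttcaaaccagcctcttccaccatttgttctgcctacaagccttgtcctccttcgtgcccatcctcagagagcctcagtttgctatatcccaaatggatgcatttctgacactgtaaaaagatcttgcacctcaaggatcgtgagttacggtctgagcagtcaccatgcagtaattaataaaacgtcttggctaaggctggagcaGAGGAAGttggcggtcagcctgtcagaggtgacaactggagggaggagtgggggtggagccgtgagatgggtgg

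These 3 windows differ in composition and in the matches they hold. The Ptgs2 window had a GC content of 59.3% and 16 CpG dinucleotides, against 50.7% and 6 for Ptgs1 and 45.3% and 6 for Pla2g4a, with a median GC content of 52.7% over 32851 windows. It held matches to 3 of the 7 motifs, none of them overlapping another. TTGCNNAA lay at -69 to -62 from the start site, TGACGT (as its reverse complement) at 13 to 18, and GGGCGG at -170 to -165. Over all windows these motifs occurred in 10.8%, 7.51% and 35.7%. The Ptgs1 window held a single match, GAGGAAG at -24 to -18, a motif found in 13.6% of windows. The Pla2g4a window shown held no match to these letters. A second RefSeq start site of Pla2g4a has its own window, which is not shown and held a single TATAAA match. TATAAA occurred in 13.6%, TGANTCA in 7.81% and the NF-kB consensus in 4.51% of all windows. These matches describe letters in the reference and are no evidence of binding in these cells.

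The terminal prostanoid synthases of the set (Ptges, Ptges3 and Tbxas1) showed no called change. Of 5 tested synthases outside the set 3 were called, as described below. Ptges, which encodes the inducible microsomal prostaglandin E synthase, had a derived mean of 237 in control and 240 in knockout cells. Its log2 fold change was 0.02 (DESeq2 adjusted p = 0.968, SE 0.23) in the authors' deposited table. The 95% interval of the fold was 0.74 to 1.39, so changes within that range cannot be told from none. A log2 fold change of about 0.59 would have been needed for a call at this SE, since the smallest absolute Wald statistic among called genes was 2.53.

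Ptges3 encodes the co-chaperone p23, also described as a cytosolic prostaglandin E synthase. Its derived mean was 8110 in control and 7893 in knockout cells, with a log2 fold change of -0.04 (DESeq2 adjusted p = 0.689, SE 0.06) in the authors' deposited table. The interval of the fold, 0.90 to 1.06, was the narrowest among the 6 genes without a call. Of the words of 31 nucleotides in its longest transcript, 22.8% also occur in the pseudogene Ptges3-ps and 9.70% in Gm11893, so its count is uncertain where reads could be split.

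Tbxas1 encodes thromboxane A synthase. With a derived mean of 13530 in control and 13689 in knockout cells it was among the most abundant transcripts of the set. The log2 fold change was 0.02 (DESeq2 adjusted p = 0.892, SE 0.07) in the authors' deposited table, and the interval of the fold was 0.92 to 1.11. Its exons overlap Gm42962 on the opposite strand, with the same limit on strand as for Ptgs1.

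In the leukotriene branch the 5-lipoxygenase activating protein was lower in the knockout. Alox5ap, on chromosome 5 at 149264767 to 149288153 on the plus strand (mm10), had a derived mean of 17833 in control and 14301 in knockout cells, so that it fell by 19.8%. For Alox5ap the authors' deposited table lists a log2 fold change of -0.32 (DESeq2 adjusted p = 1.86e-09, SE 0.05), with a 95% interval of -0.41 to -0.22. Only 1.28% of tested genes had a smaller adjusted p. Its SE was 0.63 times the median of genes of like mean, so this is the most precisely measured of the 10, and the call held under every scaling, filter and threshold tried (adjusted p of 1.51e-09 to 2.50e-06). Exons of Alox5ap overlap Gm19719 on the opposite strand. Macrophage markers were lower too (3 of 8 called, with 1 higher), and whether the fall of Alox5ap went with them was not tested.

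Alox5, which encodes 5-lipoxygenase itself, was the least abundant of the set, with a derived mean of 43.8 in control and 75.9 in knockout cells. The log2 fold change of 0.79 (DESeq2 adjusted p = 0.263, SE 0.51) in the authors' deposited table was not called. Its interval runs from 0.87-fold to 3.48-fold, and a fold of about 2.45 would have been needed for a call, so a smaller rise would not have been called. The SE was 1.80 times that of genes of like mean. Per kilobase of the longest annotated transcript, Alox5ap was 1165 times as abundant as Alox5 in control and 539 times in knockout cells (1739 and 804 times with the median length of coding transcripts). The difference between these ratios was not tested, and it includes the uncalled change of Alox5.

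Lta4h, the leukotriene A4 hydrolase gene, had a derived mean of 3729 in control and 3761 in knockout cells. Its log2 fold change was 0.01 (DESeq2 adjusted p = 0.924, SE 0.07) in the authors' deposited table, with a fold interval of 0.92 to 1.11. Ltc4s, which encodes the enzyme that joins leukotriene A4 to glutathione, had a derived mean of 317 in control and 313 in knockout cells. The log2 fold change of Ltc4s was -0.02 (DESeq2 adjusted p = 0.96, SE 0.19) in the authors' deposited table, and its fold interval of 0.76 to 1.28 was wider. Ltc4s exons overlap Gm26542 on the opposite strand. Alox5 and Ltc4s are strongly expressed by neutrophils, mast cells or basophils. Markers of these cells had low means, some of them near the mean of Alox5 (59.8). These means are not per kilobase, so they do not compare levels between genes. The part of such cells in the levels or changes of Alox5 and Ltc4s was not tested. Among 10 neutrophil markers 4 were in the table, with means from 2.68 to 76.8 (S100a8, then Cxcr2 at 54.6) and summed derived levels of 135 in control and 140 in knockout cells. Among 9 mast cell and basophil markers 5 were in the table, with means up to 32.0 for Kit and 17.8 for Hdc and summed derived levels of 48.8 and 84.6. Gata2 was the only one of these called (higher, mean of 12.4 in the authors' deposited table) and was named after its value was seen. The other neutrophil, mast cell and basophil markers that were measured had means of 2.08 to 3.33 and no adjusted p. The remaining markers of these lists were not found among the deposited genes. Among megakaryocyte markers Pf4 had a mean of 10871.5, a gene that macrophages also express, and Ppbp one of 12.8 in the authors' deposited table. The summed derived level of those 4 markers was 10433 in control and 11383 in knockout cells.

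**Figure D2:**
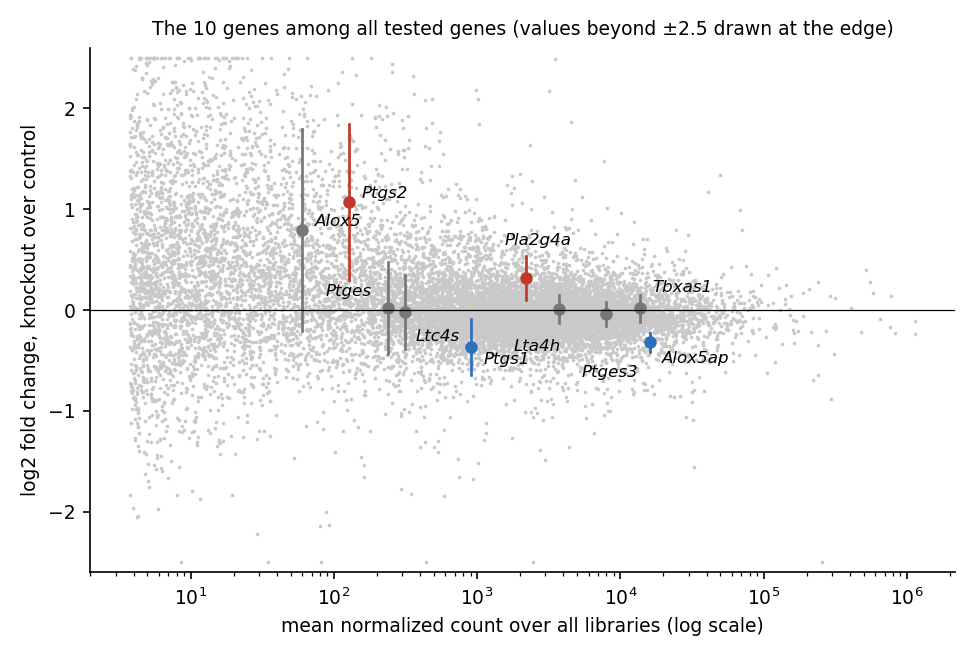
Grey points are all tested genes, with the mean normalized count on a log axis and the log2 fold change, and coloured points are the 10 synthesis genes with 95% intervals. Red is called higher, blue called lower and grey not called. Alox5 and Ptgs2 lie among lowly expressed genes with wide intervals, while Alox5ap lies near the right of the cloud with an interval of -0.41 to -0.22.

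Levels of the 10 genes can be compared only per length. Per kilobase of the longest annotated transcript, the mean normalized count was 12843 for Alox5ap, 4001 for Ptges3, 2983 for Tbxas1 and 1161 for Lta4h. It was 634 for Pla2g4a, 440 for Ltc4s, 315 for Ptgs1, 65.5 for Ptges, 28.8 for Ptgs2 and 16.7 for Alox5. The low end of this order holds Ptgs2 and Alox5, and Alox5ap, Ptges3 and Tbxas1 stand at the top. With the median length of coding transcripts Tbxas1 (9537) and Ptges3 (4497) changed places and the rest of the order was kept. No spread over libraries is available for these levels, so neighbours in the order were not tested.

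**Figure D3:**
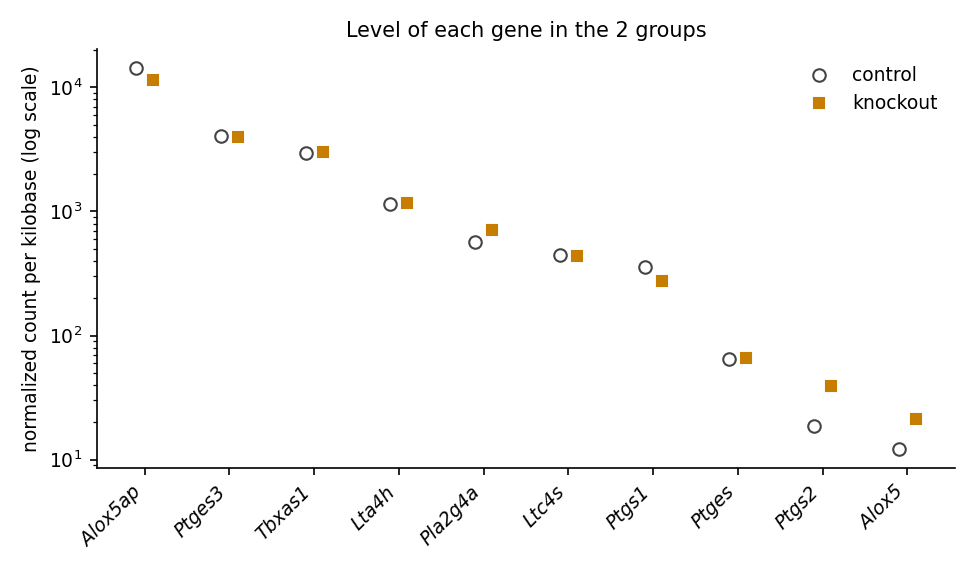
Derived normalized counts per kilobase of the longest annotated transcript in control (open circles) and knockout (squares), on a log axis, ordered by the mean. The levels span from 16.7 for Alox5 to 12843 for Alox5ap, and the 2 groups are farthest apart on this axis for Ptgs2 and Alox5.

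The deleted clusters encode miRNAs that bind 3′ UTRs through their seeds, so the members' 3′ UTRs were searched for seed matches. Mature miRNAs of the clusters are shown with the seed, bases 2 to 8, in capitals (RefSeq, GRCm38.p6), and miR-23b-3p is named only. The pair of miR-27 miRNAs shares 1 seed, and both miR-24 genes give the same mature miRNA.
miR-23a-3p: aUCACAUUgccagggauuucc
miR-27a-3p: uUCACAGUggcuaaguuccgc
miR-27b-3p: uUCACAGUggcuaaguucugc
miR-24-3p: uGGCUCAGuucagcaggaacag

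Seed matches of 7 or 8 nucleotides were present in 3 of the 10 genes, Ptgs2, Ptges and Tbxas1, against 53.4% of 13074 tested genes with an annotated 3′ UTR. The sites below are shown because they are all that the longest 3′ UTRs of the set hold, with the match in capitals and positions in mm10 (GENCODE M21).
Ptgs2, miR-23, chr1:150105802-150105822, plus strand, exon 10: atttatttATGTGAAgaattt
Ptges, miR-27, chr2:30891774-30891794, minus strand, exon 3: agtgtgacCTGTGAAtgttcg
Ptges, miR-27, chr2:30889661-30889681, minus strand, exon 3: ggtgtgtcACTGTGAggtggg
Ptges, miR-24, chr2:30890841-30890861, minus strand, exon 3: agacattgTGAGCCAtcatgt
Ptges, miR-24, chr2:30890773-30890794, minus strand, exon 3: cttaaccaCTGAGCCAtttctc
Tbxas1, miR-27, chr6:38952200-38952220, plus strand, exon 6: aataagttCTGTGAAtaatga
Tbxas1, miR-24, chr6:38952511-38952532, plus strand, exon 6: ctcaggtgCTGAGCCAtctctc

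Matches were present in called and uncalled genes, and no relation between matches and fold changes was tested. Ptges had the most matches, 4 in a 3′ UTR of 3106 nucleotides, and its log2 fold change was 0.02 (SE 0.23, from the authors' deposited table). Tbxas1 had 2, both in a transcript of 6 exons, and its other coding transcript with an annotated 3′ UTR, of 13 exons, had none. Ptgs2 was the only called gene with a match, a single 7-nucleotide one to miR-23 that begins 28 nucleotides after the stop codon. Pla2g4a, which also rose, had no match in its 443 nucleotides, nor did Ptgs1 or Alox5ap, which fell. Matches to miR-23, miR-27 and miR-24 occurred in 24.6%, 28.8% and 26.3% of tested genes. Matches of 8 nucleotides were found in Ptges and Tbxas1 (miR-24 in both) and in 19.5% of tested genes. The median 3′ UTR of tested genes was 1165.5 nucleotides, while Lta4h (94) and Ltc4s (102) had very short ones in which few matches could occur. The 3′ UTR of Ptgs2 also holds 14 copies of ATTTA, the core of AU-rich elements that speed mRNA decay, and 3.01% of tested genes held at least as many.

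**Figure D4:**
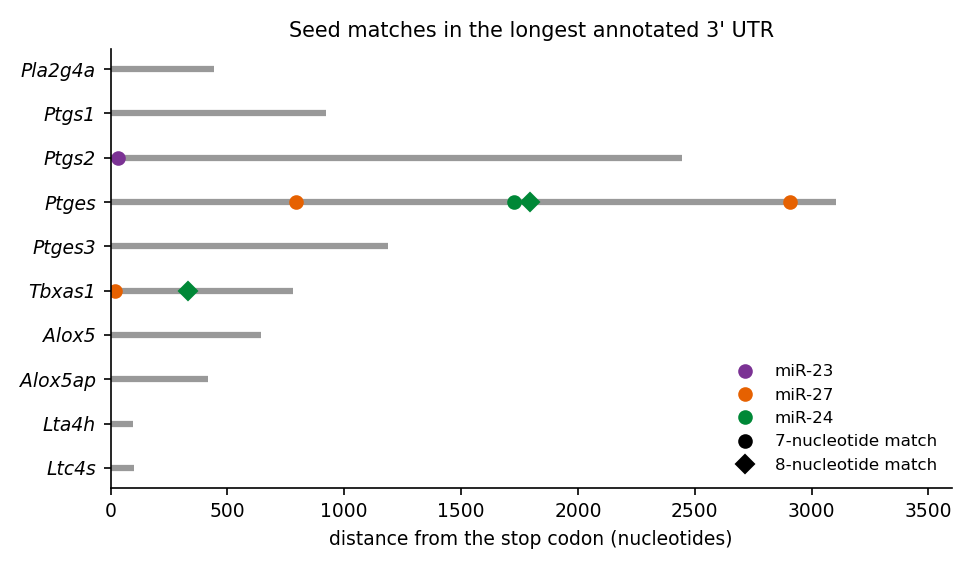
Grey bars are the longest annotated 3′ UTRs of the 10 genes, drawn from the stop codon in nucleotides, and symbols are seed matches of miR-23, miR-27 and miR-24 (circles for 7 and diamonds for 8 nucleotides). Matches are present in Ptgs2 (1), Ptges (4) and Tbxas1 (2).

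The other genes of the pathway were described from lists by role. Over these lists 27 of 69 tested genes were called, 15 higher and 12 lower, a share of 39.1% beside the background of 23%. The fibroblast markers that rose in the same comparison (9 of 9 called) stand beside each of these counts, and their part was not tested.

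Other enzymes that free arachidonate or related lipids were divided, with 3 of 12 tested genes higher and 3 lower. Pla2g15, the lysosomal phospholipase A2, had a log2 fold change of -0.43 (DESeq2 adjusted p = 6.10e-25, SE 0.04) in the authors' deposited table and was the most strongly supported of them. Daglb, a diacylglycerol lipase that makes the arachidonate carrier 2-arachidonoylglycerol, was at -0.30 (SE 0.07, from the authors' deposited table), and Dagla, named outside the rule, also fell. Pla2g6, the calcium-independent phospholipase A2, was at 0.33 (SE 0.09) and Pla2g7, which inactivates platelet-activating factor, at 0.49 (SE 0.13, from the authors' deposited table). Pla2g5, a secreted phospholipase also named outside the rule, rose with them. Of 5 tested genes that return arachidonate to phospholipids or act beside it, Lpcat2 alone was called. Lpcat2, an acyltransferase that also makes platelet-activating factor, was at -0.64 (SE 0.09, from the authors' deposited table).

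Among the prostanoid synthases outside the set, 1 of 5 was higher and 2 were lower. Hpgds, the haematopoietic prostaglandin D synthase, had a mean of 25600 and a log2 fold change of -0.42 (DESeq2 adjusted p = 4.37e-10, SE 0.06) in the authors' deposited table. Ptges2, a further prostaglandin E synthase gene, was at -0.31 (SE 0.08) and Prxl2b, a prostamide and prostaglandin F synthase gene, at 0.52 (SE 0.14, from the authors' deposited table). Genes of prostanoid transport and inactivation had 4 of 7 called higher. Hpgd, which starts the inactivation of prostaglandins, was at 0.72 (SE 0.21), and Ptgr2, a reductase of the next step, at 0.31 (SE 0.05, from the authors' deposited table). Cbr3, a carbonyl reductase gene, was at 0.30 (SE 0.09) and Slco2a1, the prostaglandin transporter, at 1.55 (SE 0.50) with a mean of only 15.1 in the authors' deposited table. At an adjusted p under 0.01 the count was 2 of 7, Hpgd and Ptgr2.

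Prostanoid receptors had 1 called gene among 5 tested. Ptger2, the EP2 receptor of prostaglandin E2, was at -0.53 (DESeq2 adjusted p = 0.00228, SE 0.14) in the authors' deposited table, while Ptger4, the EP4 receptor, named outside the rule, was at 0.12 (SE 0.23). Receptors of leukotrienes and resolving lipids gave 0 calls by DESeq2 among 5 tested, and 0 at an unadjusted p under 0.05. The smallest p among them was that of Ltb4r1, a leukotriene B4 receptor gene with a mean of 4.16 and an adjusted p of 0.171 by DESeq2 in the authors' deposited table.

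Genes that process or export leukotrienes had 3 of 10 higher and 1 lower. Dpep2, a dipeptidase that converts leukotriene D4 to E4, had a mean of 13045 and a log2 fold change of -0.61 (DESeq2 adjusted p = 3.95e-11, SE 0.08) in the authors' deposited table. Ggt5, which acts one step before it, was at 1.07 (SE 0.25) with a mean of only 76.7 in the authors' deposited table. Mgst2, which can make leukotriene C4 outside blood cells, was at 0.71 (SE 0.17, from the authors' deposited table). Cyp4f18, an oxidase of leukotriene B4, was at 0.51 (SE 0.14, from the authors' deposited table). In the remaining oxygenase branch 4 of 8 were higher. Ephx2, the soluble epoxide hydrolase, was at 2.16 (SE 0.52) with a mean of only 25.4 in the authors' deposited table. Cyp2j6, a P450 epoxygenase, was at 0.42 (SE 0.11, from the authors' deposited table). Cyp2j9 was at 0.91 (SE 0.33) and Alox15, the 12/15-lipoxygenase gene, at 2.27 (SE 0.76, from the authors' deposited table), with means of 29.3 and 5.33. With a minimum mean of 50 only 1 of these, Cyp2j6, was left as called.

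Textbook regulators of Ptgs2 and Pla2g4a were, where called, lower. Of 12 tested, 4 were called lower, beside 11.7% of all tested genes. The 12 were not divided by whether they raise or lower Ptgs2 or Pla2g4a. A negative log2 fold change was found in 11 of the 12, and in 50.7% of all tested genes. These 12 had means of 565 to 71037, while both shares cover all tested genes, also those of low mean. With a minimum mean of 50, 1757 genes were called lower and 1305 higher. The share of negative values among genes of like mean was not computed, and the list was written with earlier results known. Under the centring on summed means 9 of the 12 were negative, as Zfp36l1 and Mapkapk2 turned positive, against 40.2% of all genes. Cebpd, a C/EBP factor, was at -0.42 (SE 0.12), Rela at -0.19 (SE 0.06), Nfkb1 at -0.10 (SE 0.04) and Creb1 at -0.20 (SE 0.07, from the authors' deposited table). Rela and Nfkb1 encode NF-kB subunits and Creb1 the cyclic AMP response factor. Under the centring on summed means, and likewise at an adjusted p under 0.01, Cebpd alone was called.

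**Figure D5:**
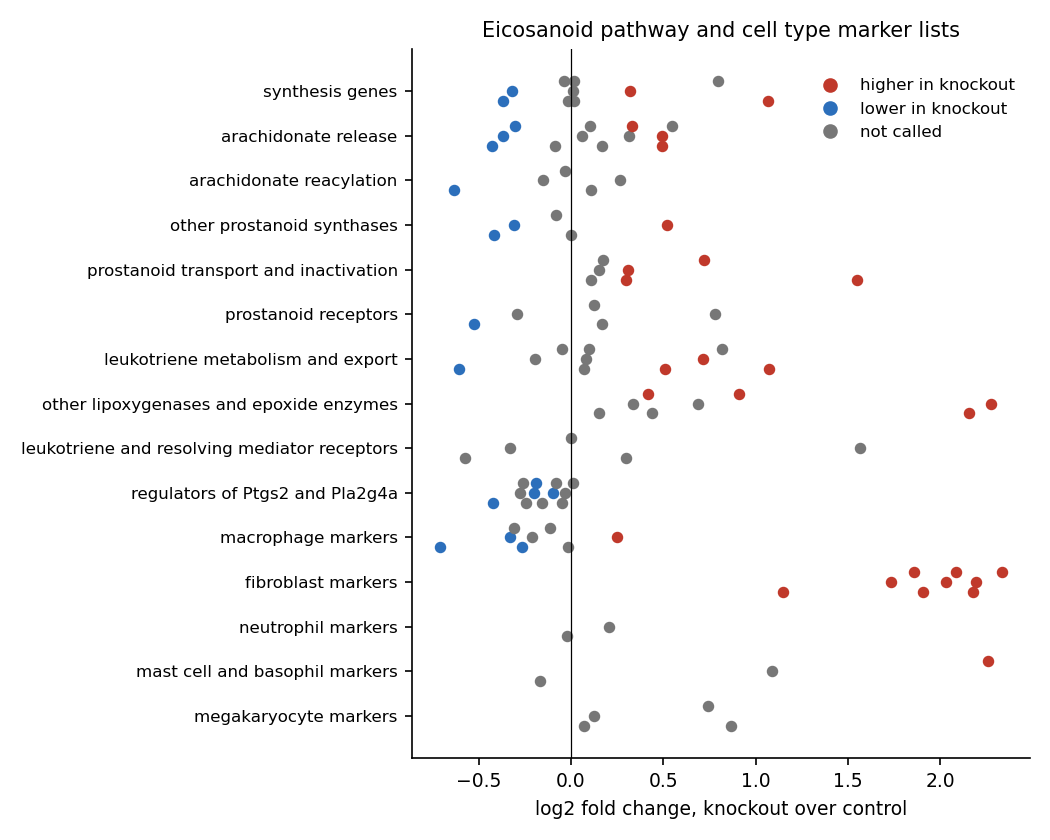
Log2 fold changes, knockout over control, of the tested genes of each list, offset vertically for legibility. Red points are called higher, blue called lower and grey not called. The 9 fibroblast markers lie between 1.15 and 2.33, and the regulators of Ptgs2 and Pla2g4a between -0.42 and 0.01.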

How the data were processed

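Polyadenylated RNA of 4 control and 4 knockout libraries was sequenced, and groups were taken from the sample titles. The submitters' processing notes name mm10 and the tools Salmon, cutadapt, FastQC and DESeq2, with versions and settings not given in the sources used here. Per the file headers, the deposited comparison gives the mean normalized count (a signal), the log2 fold change with its SE, the Wald statistic (a score) and the p-value with its adjusted p-value. The statistic equals the fold change over the SE to within 1.12e-07, and a recomputed Benjamini-Hochberg adjustment differed from the deposited one by at most 5.66e-09. The 8 columns of single libraries match no sample label and were not used, so depth, replicate spread and counting intervals are unknown here. The labels do not say that libraries came from separate animals, so p-values may measure partly technical spread. They are two-sided.

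Group means, 95% intervals, counts per list and alternative adjustments were computed in Python 3.11.15 with pandas 2.3.3 and scipy 1.17.1. Alternatives were other filters on the mean, fold changes centred on the median or on the summed group means, and a stricter threshold. Calls under each alternative, the centring on the median and the seed search were tried on simulated data. Group means, intervals, counts per list and the motif search were not. GENCODE M21 (GRCm38, which is mm10) gave transcripts, 3′ UTRs and positions, and miRNAs and promoter windows from RefSeq (GRCm38.p6). Promoter windows were matched for 9 of 10 genes. The motifs were chosen after the fold changes were seen.

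Genes named were the 10 members, up to 4 called genes per pathway list by adjusted p (or the smallest p where none passed), the 2 marker genes of highest mean per list, and Lyz2. The members and lists were chosen with earlier results of these data known. Markers were the macrophage, fibroblast, neutrophil, mast cell and basophil, and megakaryocyte lists. Identity between the proteins of the set, planned at the start, was not computed.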

Additional observations from a re-analysis of the deposited data

How the results depend on the processing

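Over 6 alternatives, the 10 synthesis genes kept direction and side of the threshold in 54 of 60 cases. The call was lost in 4 cases, and the sign changed without a call in 2. Filters and the stricter threshold left the deposited fold changes as they were, so direction could change only under the centrings. Centring on the median used a shift of only -0.004. The 54 of 60 is therefore no measure of how firm the directions are. At an adjusted p under 0.01, 2056 genes were called (1047 higher and 1009 lower), and of the set 0 were called higher by DESeq2 (2 at an unadjusted p under 0.05) and 1 lower, Alox5ap. Pla2g4a (0.32, adjusted p = 0.0204), Ptgs2 (1.07, adjusted p = 0.0341) and Ptgs1 (-0.37, adjusted p = 0.0434) missed that threshold by DESeq2. With fold changes centred on the summed group means 960 genes were called lower, and of the set 1 was called lower, since Ptgs1 was at -0.30 with an adjusted p of 0.107. The range of the adjusted p over all alternatives was 0.00433 to 0.0221 for Pla2g4a, 0.0241 to 0.037 for Ptgs2 and 0.0388 to 0.107 for Ptgs1. That centring turned Ptges3 to 0.024 and Ltc4s to 0.045, and among other listed genes Lpcat3 to 0.028, Akr1b8 to 0.060, Abcc1 to 0.015, Cysltr1 to 0.061, Zfp36l1 to 0.028, Mapkapk2 to 0.016, Mertk to 0.048 and S100a8 to 0.040. Centring on the median turned Akr1b8 to 0.0013 and Cysltr1 to 0.0022, and none of these genes was called. Among the other listed genes calls were lost in 13 cases through scaling or threshold and gained in 2. In 7 further cases a called gene fell under a minimum mean and was no longer tested (Alox15 at 10 and 50, and Ephx2, Cyp2j9, Slco2a1, Pdgfra and Gata2 at 50). With 8-nucleotide matches alone 2 genes of the set had a seed match in place of 3. Precision is limited most for Alox5 and Ptgs2, which have the lowest means. Leaving out each library was not run, because columns of single libraries match no label. No paired analysis was possible because no library column could be tied to a labelled sample or replicate number.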
